A study of Mus musculus with 2 samples.

Results

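Long intergenic noncoding RNAs (lincRNAs) were examined in mouse leukemia stem cells, and 42 autosomal lincRNAs were present at 1 TPM or more in both libraries, of 2130 autosomal lincRNA rows that could qualify. TPM is the share of transcripts given to a gene, scaled to a fixed sum per library, and thus a level per length of RNA. The members were chosen by this measured level, together with the gene type lincRNA in the GENCODE M21 annotation, and Gas5 and the Snhg genes were left out. Another 2 rows that met the level, Gm26917 and Gm42418, are described apart because they may be ribosomal RNA. The series is 1 group of 2 paired-end RNA-seq libraries, labelled as polyA RNA and numbered as biological replicates 1 and 2. All cells carried Friend virus, the retrovirus of mouse erythroleukemia, and were labelled as positive for CD34, CD133, Kit and Sca1. They came from adult mice of 10 to 12 weeks, pooled from males and females, of a strain that must carry the Fv2-sensitive allele. Both libraries have the same donor record and different biosamples, no uninfected or other control cells were analysed here, and the spread between the libraries may be partly technical.

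LincRNAs are transcribed and often spliced and polyadenylated like messenger RNA, but they are annotated as having no coding sequence. Some act in the nucleus as scaffolds of nuclear bodies, some bind proteins in the cytoplasm, and some are precursors of microRNAs. Many start close to a coding gene and are transcribed away from it, and in blood cells they are often restricted to 1 lineage.

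The libraries held 23575315 and 22541765 expected counts in replicates 1 and 2. The 42 lincRNAs took 0.098% and 0.103% of these counts and 0.0992% and 0.138% of the TPM. The genes of the labelled sort markers were low, with Cd34 at 1.8 and 0.27 TPM, Kit at 1.81 and 1.06 TPM, Ly6a (Sca1) at 1.45 and 2.15 TPM, and Prom1 (CD133) at 3 and 0 counts. The 7 red cell precursor markers were all at 1 TPM or more in both libraries and summed to 89800 and 154000 TPM. Within that list the globin gene Hba-a1 was higher in replicate 2 by TPM (51056 and 133373 TPM). The other 6 were lower there by TPM, among them Hbb-bs (34716 and 18611 TPM), Klf1 (1605 and 1053 TPM) and Gata1 (308 and 75.03 TPM). On deposited TPM the median log2 ratio of all genes was itself -0.445. On counts scaled by TMM it was -0.04, with Klf1 at -0.12, Hbb-bs at -0.41 and Gata1 at -1.56. The 5 B lineage markers summed to 692 and 280 TPM, the 5 macrophage markers to 924 and 1340 TPM, and the 5 granulocyte-monocyte markers to 211 and 502 TPM. Of these 3 lists, 4, 4 and 5 markers were at 1 TPM or more in both libraries, and none was at 0 in both. By TPM, all 5 B lineage markers were lower in replicate 2. Of the macrophage markers 4 were higher there by TPM and Adgre1 was lower (3.67 and 0.78 TPM). Axl, among those 4, had 6235 and 6089 counts. Of the granulocyte-monocyte markers only Irf8 (114.88 and 426.79 TPM) and Spi1 (24.6 and 53.67 TPM) were higher in replicate 2 by TPM. Csf3r (57.45 and 13.31 TPM), Mpo (8.87 and 3.84 TPM) and Elane (5.66 and 4.39 TPM) were lower. Irf8 rose less in counts (6095 and 8034) than in TPM, and its TPM is part of the summed 211 and 502 TPM. The T cell list summed to 93.3 and 90.2 TPM, the megakaryocyte list to 343 and 349 TPM, and the stromal and endothelial list, with Dcn at 0 in both libraries, to 120 and 116 TPM. The part of these cells in the lincRNA values was not tested. In bulk RNA, fewer cells of a type and less RNA per cell cannot be told apart.

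The sequences below are those on which the description of named members rests. The lincRNA Norad, listed under its symbol 2900097C17Rik, is known for binding Pumilio proteins, which repress messenger RNAs, at repeated copies of the motif TGTANATA. Its M21 transcript of 4915 bases, 1 exon at chr2:156388065-156392979 of mm10, held 11 matches on the sense strand. Of these, 5 are shown with the bases around them, the match in capitals:
Norad site 1 (chr2:156392311-156392340, minus strand): tagaagtcctgTGTATATAatatgaaaaag
Norad site 4 (chr2:156391439-156391468, minus strand): actgactgctgTGTATATAgtggacaacag
Norad site 6 (chr2:156391133-156391162, minus strand): tgtgtgtatacTGTATATAatggacaaata
Norad site 10 (chr2:156390208-156390237, minus strand): cagtactactaTGTATATAggggacaaatt
Norad site 11 (chr2:156389436-156389465, minus strand): cagtgagaaagTGTACATAacggattggta
Among the longest transcripts of 20807 autosomal protein-coding genes, 4 held as many matches or more, and 27.4% held any. Among those of 5209 autosomal lincRNA genes, 11.3% held any, and Norad alone reached 11. Per kilobase Norad had 2.24 matches, against 0.12 over all coding and 0.104 over all lincRNA transcripts together. Of the 42 members, 14 held a match. Behind Norad came Gm7292 with 9 matches, Neat1 with 4 and Pvt1 with 2. Gm7292, on chromosome 6, is a near copy of Norad: 88.5% of its words of 25 bases also occur in Norad, and their longest identical stretch is 651 bases. The windows of 30 bases at Norad sites 1, 4 and 6 occur whole in Gm7292, and those at sites 10 and 11 do not. Of the 11 windows, 8 were found whole.

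MicroRNAs lie inside 2 members on the same strand. A microRNA pairs with its targets mainly through its seed, bases 2 to 8, shown in capitals in the mature sequences of RefSeq (GRCm38.p6). Mir142hg is the host of miR-142, a microRNA known to be largely restricted to blood cells:
miR-142a-5p: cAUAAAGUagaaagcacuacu
miR-142a-3p: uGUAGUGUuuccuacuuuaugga
The 1-exon RNA 4833445I07Rik spans miR-191 and miR-425:
miR-191-5p: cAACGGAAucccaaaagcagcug
miR-191-3p: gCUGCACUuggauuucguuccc
miR-425-5p: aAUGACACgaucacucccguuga
miR-425-3p: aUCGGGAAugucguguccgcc
The 6 mature sequences have 6 different seeds. The tables measure the host RNAs and not the mature microRNAs.

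Most lincRNA rows had no counts at this depth. Of the 2130 rows, 77.7% had 0 counts in both libraries, and the 44 rows that met the level are 2.07% of them. A count of 0 allows up to 3 counts in a library. Of 20337 autosomal protein-coding rows, 42.8% met the same level, and 27.6% were without counts in either library. A further 21 lincRNAs reached 1 TPM in replicate 1 alone and 9 in replicate 2 alone. The members' median of the mean TPM was 7.805, against 15.56 for coding genes selected by the same level. Of the 42, 4 had a mean of 100 TPM or more, 17 of 10 or more and 35 of 2 or more. The 5 highest members of each library, of which 3 were the same, held 65.0% of the members' TPM in replicate 1 and 69.7% in replicate 2, so a few RNAs carried most of the signal. Counts were small for many: 18 members in replicate 1 and 19 in replicate 2 had fewer than 100 counts, and the medians were 114 and 115. Just inside the threshold were Gm7292 at 1.08 and 1.44 TPM, F420014N23Rik at 1.1 and 2.05 TPM, and C030037D09Rik at 1.13 and 1.62 TPM. Just outside were Gm26857 at 0.99 and 2.07 TPM, Gm15706 at 1.45 and 0.93 TPM, and Gm42743 at 5.52 and 0.89 TPM.

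**Figure D1:**
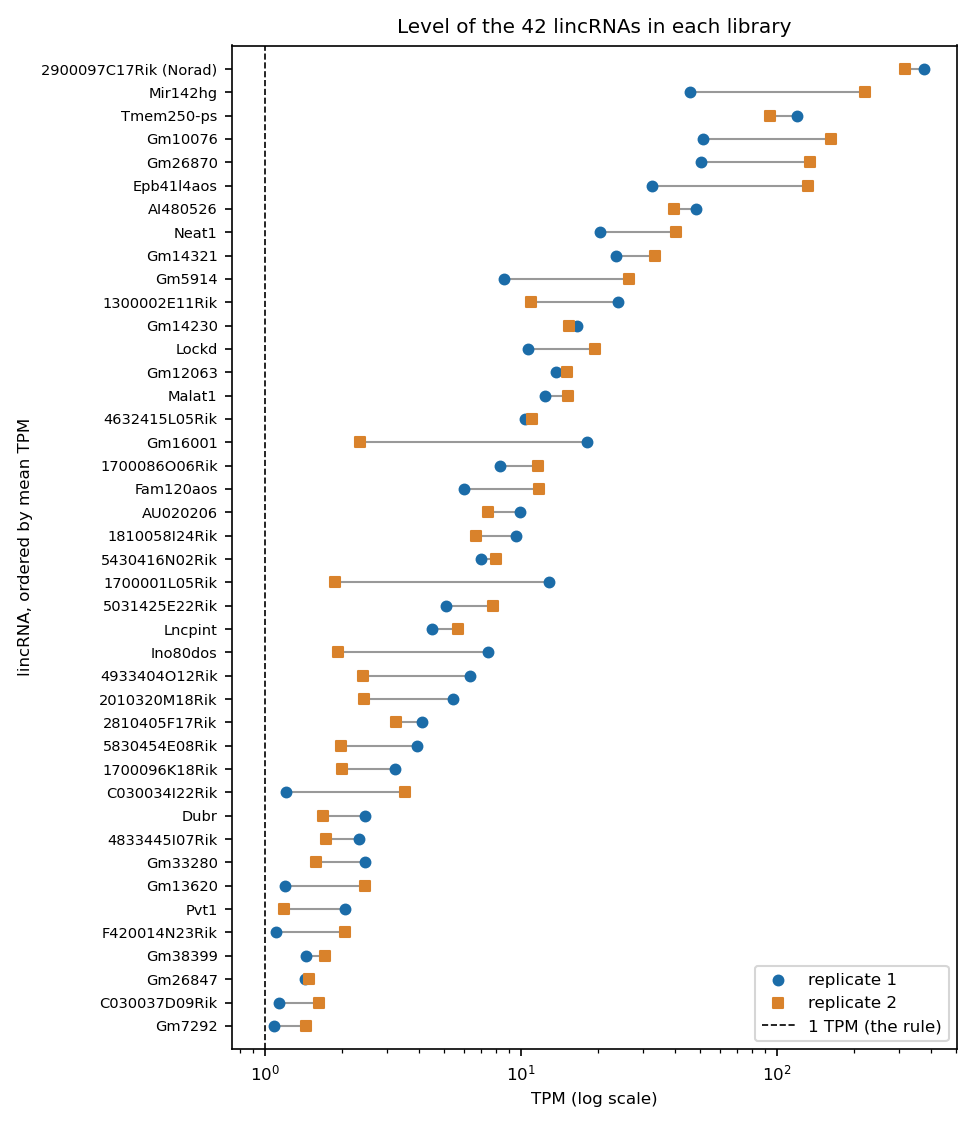
TPM (log scale) of each of the 42 lincRNAs in replicate 1 (circles) and replicate 2 (squares), ordered by mean TPM; the dashed line is the 1 TPM of the selection. Levels run from Norad at 375.12 and 314.77 TPM down to Gm7292 at 1.08 and 1.44 TPM, and the 2 points of a row lie farthest apart for Gm16001, 1700001L05Rik and Mir142hg.

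Of 8 RNAs listed as cytoplasmic or RNA-binding regulators, 3 were members. The others were under 1 TPM in a library (2), not of type lincRNA in M21 (1) or without a row (2). A place on this list does not show where an RNA acts. Norad was the highest of all members, with 375.12 TPM in replicate 1 and 314.77 in replicate 2 (mean 344.945, SD 42.7, n = 2). It held 37.8% and 22.8% of the members' TPM. The deposited model of this transcript has 1149 bases against 4915 in M21, and TPM is relative to the deposited length. Its counts, 7532.86 and 6302.5, gave a log2 ratio of replicate 2 over replicate 1 of 0.23 after TMM scaling, with a 95% counting interval from 0.19 to 0.28, while the ratio of TPM was -0.25: the direction turns with the scaling. The near copy Gm7292 had 51.14 and 24.5 counts, and reads of the 2 loci may be split by the authors' estimation.

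Epb41l4aos, an RNA named as antisense to Epb41l4a that holds a small nucleolar RNA, had 32.35 and 131.71 TPM from 172 and 687 counts. Replicate 2 was the higher, with a log2 ratio of 2.49 (2.25 to 2.74), more than 2-fold apart. The gene it is named for, Epb41l4a, was listed at 0 and 0.09 TPM. Lncpint, a target of p53, was low in both libraries, at 4.47 and 5.69 TPM from 43 and 54 counts. Its leading transcript was Lncpint-203 in replicate 1 (54.28% of the gene) and Lncpint-205 in replicate 2 (67.28%). Also on this list, 1700020I14Rik is known as Cyrano and as the RNA that triggers decay of miR-7. It had 5.61 and 0.5 TPM and missed the level in replicate 2.

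Of 14 nuclear and chromatin RNAs on the list, Neat1 and Malat1 were members. The others were under 1 TPM in a library (5), not of type lincRNA in M21 (5) or without a row (2). Both members are neighbours on chromosome 19, and the longest transcript of each has 1 exon. Neat1, the scaffold of nuclear paraspeckles, spans chr19:5824708-5845478 on the minus strand and had 20.39 and 40.12 TPM from 1824.91 and 3122.43 counts. It was more than 2-fold higher in replicate 2 on TMM-scaled counts (log2 ratio 1.27, 1.18 to 1.35), but not with total-count scaling (0.84). Paraspeckles form on the long Neat1 transcript, and the short one is the more usual polyadenylated form. The short Neat1-202, of 3004 bases, was at 17.65 and 35.43 TPM, and the long Neat1-201, of 20771 bases, at 1.99 and 2.62 TPM. The short form thus stood 8.87 and 13.5 times above the long one per length. In counts the long form still took 810.25 and 1071.65. As the short form lies within the long one, this division is the authors' estimate.

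Malat1, an abundant RNA of nuclear speckles, spans chr19:5795690-5802672 on the minus strand. It stood at 12.45 and 15.31 TPM, near the same level in both libraries, although its counts were 1685 and 538. On counts it was lower in replicate 2, with a log2 ratio of -1.16 (-1.30 to -1.01), and on TPM it was higher, with a log2 ratio of 0.30. The division of the counts over the Malat1 transcripts, which is the authors' estimate, differs between the libraries. In replicate 1 all counts were given to the full-length Malat1-201 of 6983 bases, and in replicate 2 this transcript had 413.81 counts, 76.9% of the gene's. There the 656 bases of Malat1-204 took 118.63 counts, which is 11.59 TPM and 75.7% of the gene's TPM. The full-length transcript alone was at 12.45 and 3.05 TPM, the same direction as the counts. Mature Malat1 is known to end in a triple helix and not in a poly(A) tail, and the libraries are described as polyA RNA. The part of the selection in its level was not tested.

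**Figure D2:**
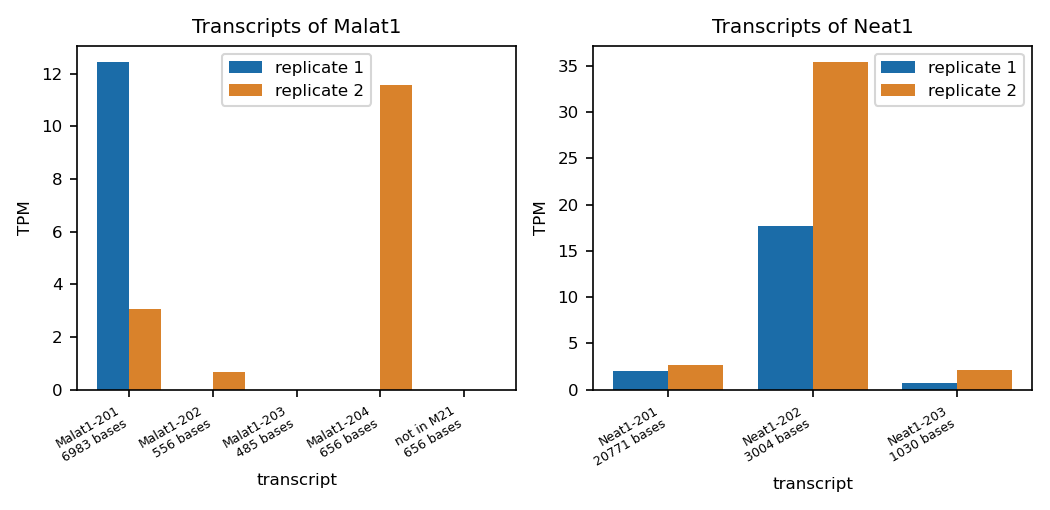
TPM of every deposited transcript of Malat1 (left) and Neat1 (right) in replicates 1 and 2, with each transcript's deposited length in bases; 1 Malat1 transcript has no M21 name. Malat1-201 is at 12.45 and 3.05 TPM and Malat1-204 at 0 and 11.59 TPM, and the short Neat1-202 is the tallest Neat1 bar in both libraries.

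Among microRNA hosts, 1 of the 17 listed was a member, and it was the second highest member in replicate 2 and the sixth in replicate 1. Of the others, 7 were under 1 TPM in a library, 4 were not of type lincRNA in M21 and 5 had no row. Mir142hg (chr11:87755577-87757270, plus strand) had 45.59 TPM in replicate 1 and 220.63 in replicate 2, from 123 and 563 counts on a spliced length of 269 bases. Replicate 2 was far above replicate 1, with the highest log2 ratio of the members, 2.68 (2.40 to 2.98). By TPM, the log2 ratio of Mir142hg was 2.275, and the granulocyte-monocyte and macrophage marker sums were also higher in replicate 2. But 3 of the 5 granulocyte-monocyte markers and 1 of the 5 macrophage markers were lower there by TPM, as were all 5 B lineage markers. On TMM-scaled counts, the scale of the 2.68, Elane instead had a log2 ratio of 0.12, so small TPM differences may turn with the scaling. The part of the cells of these lists in the Mir142hg ratio was not tested. The host of miR-191 and miR-425, 4833445I07Rik, was not on the list and had only 28 and 16 counts, or 2.33 and 1.73 TPM. Of other listed hosts, Mir17hg had 9 and 0 counts and Mir155hg 1 and 0. Dleu2 (22.13 and 20.21 TPM) and Mir22hg (2.34 and 1.03 TPM) met the level in both libraries but are not of the lincRNA type in the annotation.

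Of 8 listed RNAs tied to p53, MYC and growth, Pvt1 was a member. Of the others, 1 was under 1 TPM in a library, 1 was not of type lincRNA in M21 and 5 had no row. Pvt1 lies beside the oncogene Myc over chr15:62037986-62378096 and had 2.06 and 1.18 TPM from 56.6 and 26 counts. Its ratio could not be set apart from equal levels (log2 ratio -0.63, interval -1.37 to 0.05). Myc itself was at 492.07 and 376.52 TPM. Pvt1-208 led in both libraries, with 76.89% and 85.16% of the gene. The small annotated RNA Gm27913, which lies inside Pvt1 on its strand, had 21.4 and 0 counts of its own, so counts of this locus are divided over several rows. The p53-induced Trp53cor1 had 0 counts in both libraries.

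Of 17 blood and immune RNAs on the list, Lockd was the one member. Of the others, 4 were under 1 TPM in a library, 6 were not of type lincRNA in M21 and 6 had no row. Lockd starts 3579 bases after the end of Cdkn1b, a cell cycle inhibitor, on the same strand, and its locus is known as an enhancer of Cdkn1b in red cells. It had 10.62 and 19.4 TPM from 65 and 116 counts. Replicate 2 was higher, with a log2 ratio of 1.32, but the interval of 0.88 to 1.79 reached below 2-fold. Cdkn1b stood at 66.87 and 57.81 TPM, with a log2 ratio of 0.20. Lockd-201 took 98.65% and 99.33% of the gene, with a deposited length of 441 bases against 5662 in M21. The red-cell lincRNAs Redrum (2.37 and 0.56 TPM) and Bloodlinc (17 and 0 counts) missed the level in replicate 2, as did Gm14005 (1.61 and 0.29 TPM).

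The other members among the 15 highest have no function that can be given here. Tmem250-ps, named as a pseudogene of Tmem250 and lying on chromosome 2, was close in both libraries, with 119.81 and 93.86 TPM from 5563 and 4365 counts. AI480526 had 48.39 and 39.69 TPM, and Gm14230 16.55 and 15.39 TPM. Gm14321 was at 23.47 and 33.26 TPM. Its nearest coding gene, the myeloid factor gene Cebpb, lies 87049 bases away and was at 67.21 and 192.68 TPM. Gm12063 lies beside Bcl11a, which encodes a repressor of fetal globin genes, and had 13.64 and 15.08 TPM beside 96.93 and 82.83 TPM of Bcl11a. 1300002E11Rik, on the strand of Map3k13 and overlapping it, was at 23.88 and 10.89 TPM, while Map3k13 was listed at 0.08 and 0.12 TPM. Gm5914 had 8.58 and 26.32 TPM.

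Several members share most of their words of 25 bases with other genes, on 1 strand or the other. Among them are AI480526 (62.6%) and Gm5914 (68.0%). Genes annotated over the same locus were counted too, so shared words may come from overlap and not from a copy. Gm10076, of 384 bases, shares 85.8% of its words of 25 bases with Rpl41, a ribosomal protein gene at 2301 and 1898 TPM, and 150 bases are identical without a break. It had 51.23 and 162.39 TPM, so it was higher in replicate 2 (log2 ratio 2.11, 1.91 to 2.32) while Rpl41 had a log2 ratio of 0.20. Gm26870 lies at the start of the assembled chromosome 9 (chr9:3000282-3038313). Of its words 80.0% occur on the opposite strand of other genes, with 49.5% in Gm10719 and 47.2% in Gm10717. It had 50.38 and 134.07 TPM (log2 ratio 1.90, 1.80 to 2.01). Gm10719 was at 6.8 and 22.91 TPM, also higher in replicate 2. Whether reads of these rows come from their own loci was not tested. Over all members, 28 of 42 shared 30 or more words with at least 1 other gene on either strand, overlapping genes included. Gm10076 and Gm7292 shared over 50% of their words on the same strand.

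Between the libraries the median log2 ratio of the members was 0.53, with a range from -2.47 to 2.68, beside -0.04 for all 12482 genes with 20 or more counts. On deposited TPM the medians were 0.12 and -0.45, so the distance to the other genes was similar and the zero point differed. The biological coefficient of variation between the libraries over all genes was 0.5589. With intervals wholly outside 2-fold, 8 of the 42 were higher in replicate 2, a background of 9.13% of all genes tested, and 3 were higher in replicate 1, a background of 14.8%. With total-count scaling these numbers were 6 and 5, but the background over all genes was not computed for this scaling. The members were chosen on these same libraries, at 1 TPM or more in each, while the other genes needed only 20 counts over both. Nothing is therefore read from the counts beside their background, or from the distance between the medians. Higher in replicate 2 were Mir142hg, Epb41l4aos, Gm10076, Gm5914, C030034I22Rik, Gm26870, Fam120aos and Neat1. Gm5914 had 34.89 and 103 counts (log2 ratio 2.03, 1.48 to 2.65), and C030034I22Rik 41 and 117 counts (1.99, 1.48 to 2.56). Higher in replicate 1 were Gm16001, with 259 and 33 counts (-2.47, -3.05 to -1.95), 1700001L05Rik, with 343 and 61 counts (-1.99, -2.42 to -1.60), and Malat1. The intervals cover counting error only, and with 1 library on each side no test between conditions exists. By TPM, 20 members were within 1.5-fold between the libraries, 13 were over 2-fold apart and 4 over 4-fold. For 3 members, unscaled counts and TPM pointed in opposite directions, and for 9 the TMM-scaled ratio and the TPM ratio did.

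**Figure D3:**
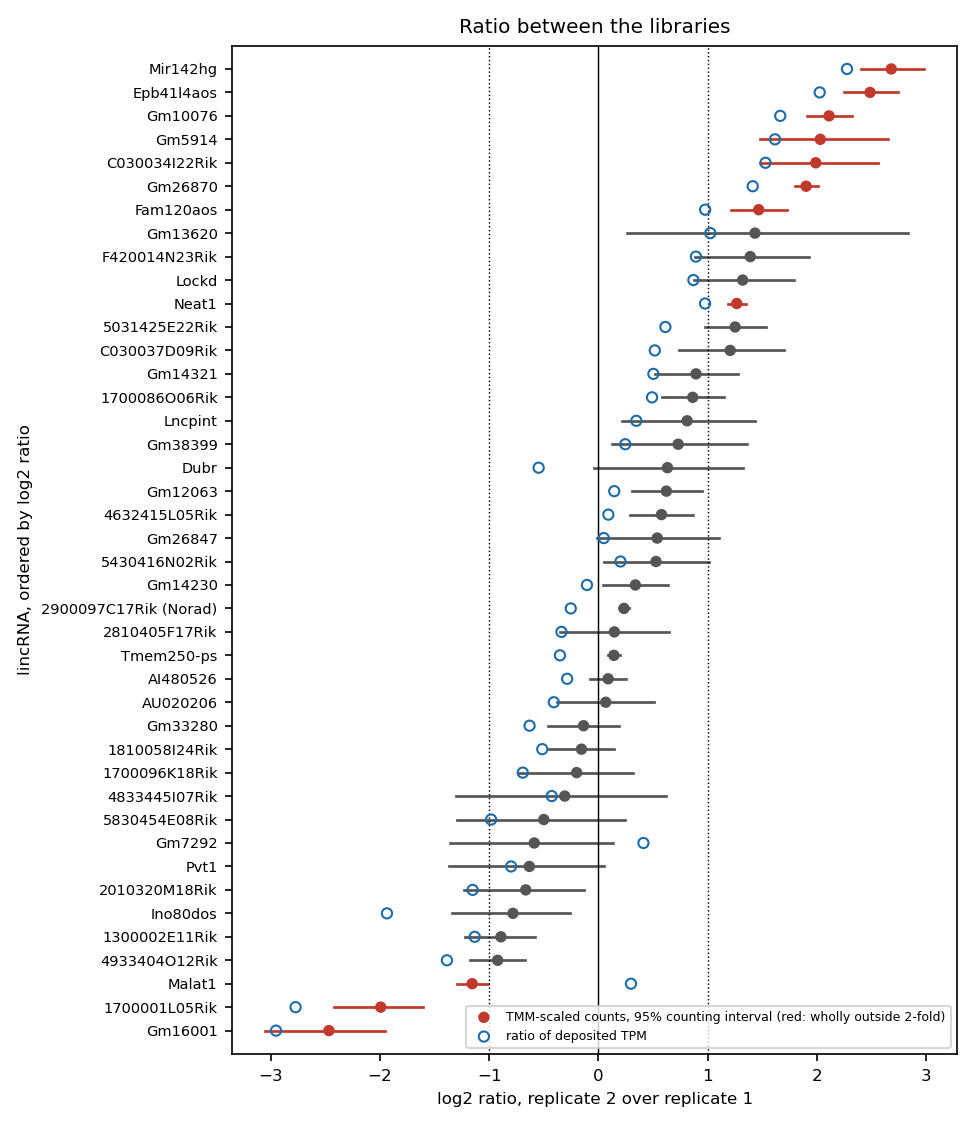
Log2 ratio of replicate 2 over replicate 1 for the 42 lincRNAs, from TMM-scaled counts (filled points, lines are 95% counting intervals, red where wholly outside 2-fold) and from deposited TPM (open circles); dotted lines mark 2-fold. The open circles lie to the left of most filled points, and for Malat1 and Gm7292 they lie to the right.

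Of the 42 members, 27 had several deposited transcripts, 106 in all with the single ones. The same transcript led in both libraries in 22 of these 27. It differed for Malat1, Lncpint, Gm7292, Ino80dos and 4933404O12Rik. Of the 106 transcripts, 94 have the same length in M21, 9 are longer there and 2 shorter. The lengths of 4 are over 1.5 times greater in M21, among them Norad, Lockd-201 and 1700001L05Rik-203.

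The detected lincRNAs stood close to coding genes. Of the 42, 15 (35.7%) had a protein-coding gene starting within 2 kb on the other strand, against 12.0% of the 2086 other autosomal lincRNA rows. The partner was itself at 1 TPM or more in both libraries for 13 of the 15 (86.7%), against 51.0% of such partners of the other rows. The median distance to the nearest coding gene was 2974 bases, against 24390 bases, and this nearest gene was detected for 69.0% against 45.8%. A single exon in the longest transcript was found for 14 members (33.3%) against 7.05%, and the median of that transcript's length was 1944 against 1038 bases. Members that overlap a coding gene on the same strand or start within 5 kb after its end were 8 of the 42, against 6.14% of the other rows, and those overlapping one on the other strand were 7 (16.7%), against 12.8%. These are descriptions without a test. The use of strand in counting is not stated, so reads of overlapping genes on opposite strands cannot be told apart.

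**Figure D4:**
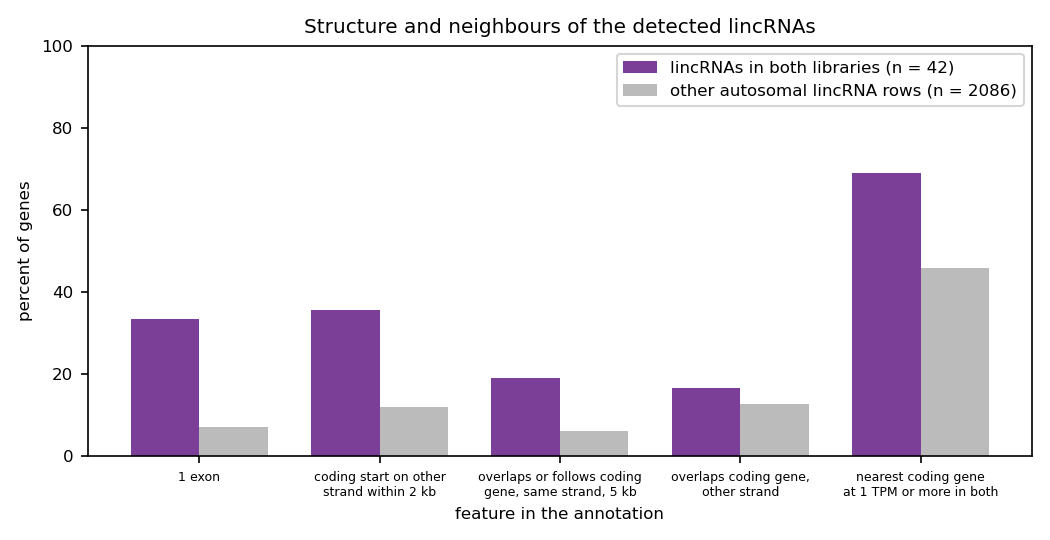
Percent of the 42 lincRNAs (purple) and of the 2086 other autosomal lincRNA rows (grey) with each annotated feature. The purple bar is the taller in all 5 features, with 33.3% against 7.05% for a single exon and 16.7% against 12.8% for overlap on the other strand.

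The 13 detected partners include regulators of chromatin and transcription: Ctcf (insulator protein), Setd1b (a histone H3K4 methyltransferase), Kmt2e, Ino80d (a subunit of a chromatin remodeller) and Tgif2 (a repressor). Others are Msi2, an RNA-binding protein of blood stem cells, and the mitochondrial assembly factor gene Ndufaf3. The rest are Dele1, Dtx3, Fam120a, Ogfod2, Pik3r2 and Timeless. The share of chromatin and transcription regulators among other coding genes was not computed, so nothing is read from their number here. The partner was above its lincRNA in both libraries in 11 of 13 pairs, and its mean TPM was 6.01 times the lincRNA's at the median, from 1.06 to 177. The exceptions were the pair of 5031425E22Rik (5.07 and 7.76 TPM) with Kmt2e (7.29 and 6.35 TPM), and that of Ino80dos (7.41 and 1.93 TPM) with Ino80d (5.28 and 4.62 TPM). Between the libraries, 8 of the 13 pairs had log2 ratios of the same sign and 5 of opposite sign, on TMM-scaled counts. Some of these ratios were near 0, among them Dele1 (-0.09), Fam120a (-0.097), Msi2 (0.072) and AI480526 (0.089), so their signs are not firm. The share of equal signs among other gene pairs was not computed, so nothing is read from these numbers. Gm5914 and Ctcf, which starts 917 bases away, were both higher in replicate 2, with Ctcf at 138.5 and 306.01 TPM (log2 ratio 1.37). Of the words of Gm5914, 68.0% occur on the opposite strand in Ctcf transcripts, so their counts may not be separate. Gm16001 and Ogfod2, whose starts lie 33 bases apart, went opposite ways: the lincRNA had 18.15 and 2.34 TPM and Ogfod2 34.55 and 49.51 TPM. Fam120aos had 5.96 and 11.74 TPM beside Fam120a at 265.08 and 175.7 TPM.

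**Figure D5:**
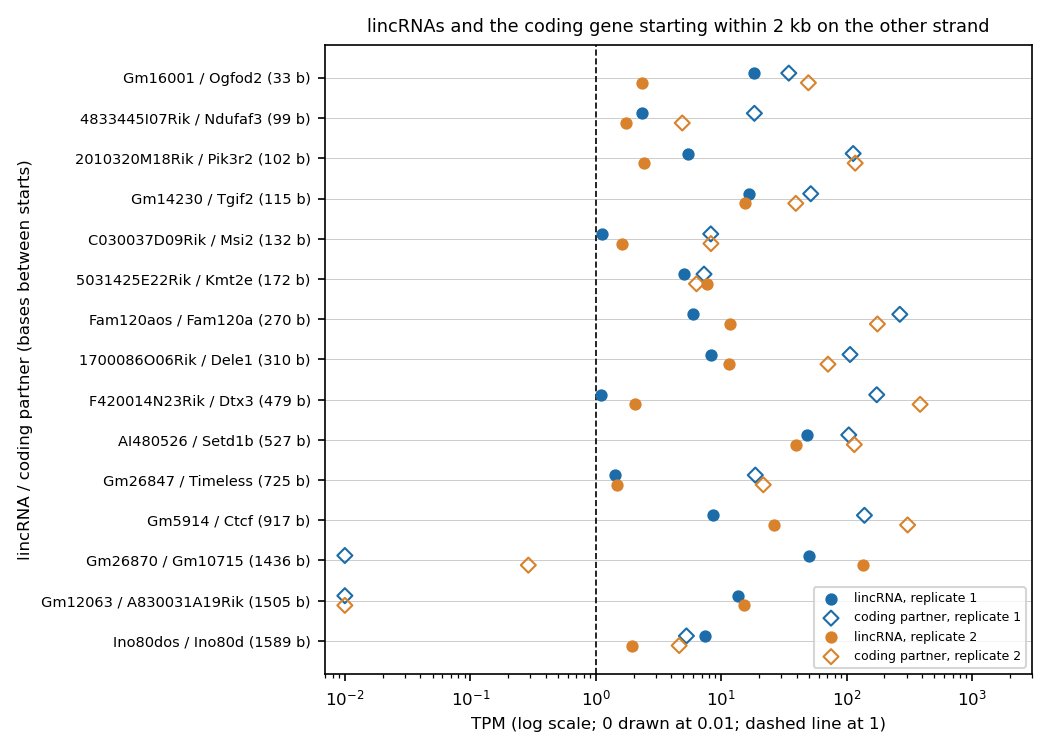
TPM (log scale) of 15 lincRNAs (filled circles) and of the coding gene starting within 2 kb on the other strand (open diamonds) in replicates 1 and 2, ordered by the bases between the starts. The partners of Gm26870 and Gm12063 lie below 1 TPM, and 11 of the other 13 partners lie above their lincRNA in both libraries.

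The RefSeq promoter table, from 250 bases before to 50 after a start on GRCm38.p6, held 28 promoters of 25 of the 42 members. Their median number of CG dinucleotides was 20.5, against 7 over all 32851 promoters. It was 30 for the 11 promoters with a coding start within 2 kb on the other strand and 15 for the other 17. The 32851 promoters were taken whatever the level of their gene, and no median was computed for detected coding genes. The difference is thus not read as a trait of lincRNAs. Motifs searched on both strands were AGATAA (5 of 28, and 11.2% of all promoters), TGATAA (5 of 28, 9.05%), both bound by GATA factors, CCACACCC (2 of 28, 3.56%) of Krüppel-like factors, CCGGAAG (6 of 28, 8.86%) of ETS factors, TGANTCA (1 of 28, 7.81%) of AP-1, and CCAAT (8 of 28, 37.4%) of NF-Y. AGATAA and TGATAA were counted separately, and a promoter may hold both. A match describes the letters only. Shown are promoters of 2 lincRNAs that start near a coding gene, Gm16001 beside Ogfod2 and C030037D09Rik beside Msi2, with matches in capitals (CCGGAAG in the former, CCAAT and the complement of CCACACCC in the latter):
Gm16001 (chr5:124112197-124112496, minus strand): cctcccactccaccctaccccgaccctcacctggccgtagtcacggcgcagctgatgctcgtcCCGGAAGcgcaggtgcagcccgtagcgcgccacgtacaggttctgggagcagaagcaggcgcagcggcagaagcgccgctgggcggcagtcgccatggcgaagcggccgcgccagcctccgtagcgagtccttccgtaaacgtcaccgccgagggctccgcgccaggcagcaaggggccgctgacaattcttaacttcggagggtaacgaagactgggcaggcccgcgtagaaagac
C030037D09Rik (chr11:88718393-88718692, plus strand): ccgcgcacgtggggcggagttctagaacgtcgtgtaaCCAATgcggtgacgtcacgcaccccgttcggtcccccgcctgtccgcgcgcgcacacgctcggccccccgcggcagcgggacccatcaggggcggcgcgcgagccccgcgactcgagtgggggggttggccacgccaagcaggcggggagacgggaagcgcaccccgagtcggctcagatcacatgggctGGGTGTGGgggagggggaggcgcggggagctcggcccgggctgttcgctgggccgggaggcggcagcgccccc
The former holds 34 CG dinucleotides and the latter 42.

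The 2 rows set apart lie next to each other on the plus strand of chromosome 17, Gm26917 at chr17:39843013-39846341 and Gm42418 at chr17:39846958-39848788. Gm26917 had 20211.06 and 52940.12 TPM and took 4.97% and 12.6% of all counts. Gm42418 had 7622.61 and 10585.37 TPM and took 1.08% and 1.58% of all counts. Together they held 6.05% and 14.2% of the counts, while the 42 members held 0.098% and 0.103%. Of the words of Gm42418, 97.0% occur in other genes, all on the opposite strand, and 1244 bases run without a break in the ribosomal RNA gene CT010467.1, annotated over it on the minus strand. Gm26917, with a GC content of 69.1%, shared no word with another annotated gene. Gm26917 was more than 2-fold higher in replicate 2 (log2 ratio 1.78), and the ratio of Gm42418 was 0.97. That share enters the sum of TPM and the total count, by which the levels of the 42 members are divided.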

How the data were processed

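Gene and transcript tables of 2 libraries of 1 group were used. The authors made them on mm10 with GENCODE M4 models, per the file headers and the readme, while the names of aligner and quantifier were not given in the sources used here. Deposited values were expected counts (estimated fragments, not all whole), TPM and FPKM relative to all rows of a table, and the percent of a gene given to each transcript. The authors' posterior mean TPM and percent served as alternatives. Of 69691 rows, 42462 matched GENCODE M21 by Ensembl identifier without version, which gave type, position and sequence. Members, lists and tests were chosen with earlier results of these data known.

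Expected counts were rounded and scaled by TMM in edgeR 4.0.16 (R 4.3.3), with DESeq2 1.42.0 size factors as an alternative. Ratios used a prior count of 0.5, 20 or more counts over both libraries and an exact binomial 95% interval. A gene counted as more than 2-fold apart where this interval lay wholly outside 2-fold. The rule was tested on simulated data with 200 changed genes, at a coefficient of variation below the 0.5589 of these libraries. The simulation therefore does not show how many unchanged genes the rule calls at that spread. The dispersion came from an intercept-only design. No p-value was computed. Named members were those in the role lists, the 15 highest, the microRNA hosts, up to 6 per direction among those more than 2-fold apart with a mean of at least 2 TPM, and 3 on each side of the threshold. Members named for their coding partner or promoter, or for a call at any level, were chosen after their values were seen. Shared sequence was counted as words of 25 bases in M21 transcripts of any other gene, those overlapping at the same locus included. Scripts used pandas 2.3.3, numpy 2.4.6, scipy 1.17.1 and matplotlib 3.10.9 under Python 3.11.15.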

Additional observations from a re-analysis of the deposited data

Results flagged for a closer look

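LincRNAs of the sex chromosomes lie outside the autosomal selection, and 2 of the X chromosome were at 1 TPM or more in both libraries, above the 3 counts that a count of 0 allows. Xist, the RNA that coats and silences 1 X chromosome in female cells, had 6658 expected counts in replicate 1 and 2404.3 in replicate 2 (120.12 and 25.46 TPM). Jpx, its neighbour and activator, had 195 and 330 expected counts (10.85 and 18.34 TPM). The mice were pooled males and females. All 549 lincRNA rows of the Y chromosome had 0 counts in both libraries. As 77.7% of the autosomal lincRNA rows also had 0 counts in both, nothing is read from this about the sex of the cells. No other result was marked, and groups of 2 libraries are too small for a check of single samples.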

How the results depend on the processing

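Of the 42 members, 41 kept 10 or more expected counts in both libraries. A minimum of 2 TPM left 27 members and one of 5 TPM left 22, while the posterior mean TPM gave 65, which included all 42. Without replicate 1 or without replicate 2 the number was 51 and 63. The median log2 ratio of the members moved to 0.108 with total-count scaling and to 0.118 on deposited TPM, under which the median of all genes was -0.468 and -0.445. Total-count scaling gave 5 members higher in replicate 1, among them all 3 called with TMM, and 6 of the 8 higher in replicate 2. The share of all genes called under this scaling was not computed, so these numbers have no background beside them. The share of members that overlap or follow a coding gene on the same strand was 7.14% at 1 kb. The log2 ratio of Malat1 turned to 0.298 on deposited TPM. Neat1 was no longer more than 2-fold apart with total-count scaling and 1300002E11Rik then was (log2 ratio -1.32). No paired analysis was possible because there was 1 group. Depth limits the members under 100 counts, whose intervals are wide.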
